A study of Mus musculus with 48 samples.

Results

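The comparison described here is the effect of germ-free status on the liver transcriptome of male mice. It rests on the exon count table whose library columns carry no female suffix, which holds 24 of the 48 libraries of the series, 12 from germ-free (GF) and 12 from conventionally raised (convR) males. The labels give every animal as C57BL/6j, aged 15-16 weeks, with liver as the tissue. Livers were taken at zeitgeber times (ZT, hours after lights on) 2, 6, 10, 14, 18 and 22, with 2 libraries for each status and time. A convR mouse carries an ordinary gut flora and a GF mouse has been kept without microbes. No allele, drug or diet separates the 2 groups in the labels, and the remaining 24 libraries come from females under the same scheme.

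The liver receives portal blood from the intestine, and with it microbial metabolites, modified bile acids and bacterial wall fragments. Hepatocytes detoxify such compounds through cytochromes P450, transferases and transporters under the nuclear receptors PXR and CAR, and conjugate bile acids, in the mouse mostly to taurine, for return to the gut. In rodents many of the same hepatic genes differ between the sexes, because the pulsed growth hormone secretion of males and the steadier secretion of females drive STAT5 differently.

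Levels are given as CPM, counts scaled to a common library total. The difference between GF and convR was fitted gene by gene with edgeR, keeping every time as its own pair of groups and averaging the GF minus convR difference over the 6 times. It is given as a log2 fold change ± an approximate standard error. That error is the size of the fold change divided by the square root of the test's F statistic. It can come out too small for changes near 0. A gene was called when its Benjamini-Hochberg adjusted p-value was under 0.05. The labels do not say that the 2 libraries of a time came from separate animals, so the p-values measure the spread between these libraries. Library totals ran from 34335183 to 74892274 counts in convR and from 29769441 to 51294708 in GF. All libraries were dominated by hepatocyte RNA, with albumin (Alb) at 42330 to 63860 CPM in convR and 61330 to 90230 CPM in GF.

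Several libraries stood apart in ways the groups do not describe. The convR ZT10 replicate 2 library held skeletal muscle RNA (summed markers 104 CPM, while no GF library exceeded 1.11 CPM), and the convR ZT18 replicate 1 library held pancreatic RNA (422 CPM, while no GF library exceeded 21.5 CPM). The GF ZT6 replicate 2 library gave 49430 CPM to the microRNA gene Mir5105, and the GF ZT2 replicate 1 library had near-convR levels of many male-typical genes, as described with those genes. Libraries numbered 1 carried more RNA of adipose tissue than those numbered 2, with summed adipocyte markers of 13.5 to 22.9 CPM in convR and 13.6 to 29.9 CPM in GF against 7.49 to 10.3 CPM and 5.09 to 12.0 CPM. The replicate number changed 120 of the 17550 genes tested (0.684%), 116 of them lower in the libraries numbered 2. Intestinal genes such as Fcgbp (mean 7.77 against 2.06 CPM), Sis (3.85 against 1.16 CPM) and Muc2 (1.05 against 0.148 CPM) and the epididymal gene Crisp1 (0.441 against 0.00215 CPM) were among them. Of the 120 genes, 4 were also called for the GF effect.

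Of 17550 genes tested, 4091 (23.3%) differed between GF and convR males, 1971 (11.2%) higher and 2120 (12.1%) lower in GF. Most differences were small, with a median log2 fold change of 0.33 among the genes called higher and -0.36 among those called lower. A change over 2-fold was reached by 172 genes that rose and 300 that fell, and one over 4-fold by 32 and 58. The direction was the same at all 6 times for 2267 of the called genes and at 5 times for a further 1447. When libraries were scaled by their totals alone, 5877 genes were called, 996 higher and 4881 lower, and the median of all genes moved from -0.00288 to -0.12. The directions given below are relative to the median gene. Without the libraries numbered 1, 523 genes were called, and without those numbered 2, 1109. These 2 fits used a single GF effect common to all times, a model that called 3492 genes over all 24 libraries. The plain CPM ranges of the 2 groups did not overlap for 19 genes with GF above convR (0.108%) and 129 with GF below (0.735%). After TMM scaling, which the tests used, the counts were 34 and 82. Statements on overlap below refer to plain CPM.

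**Figure D1:**
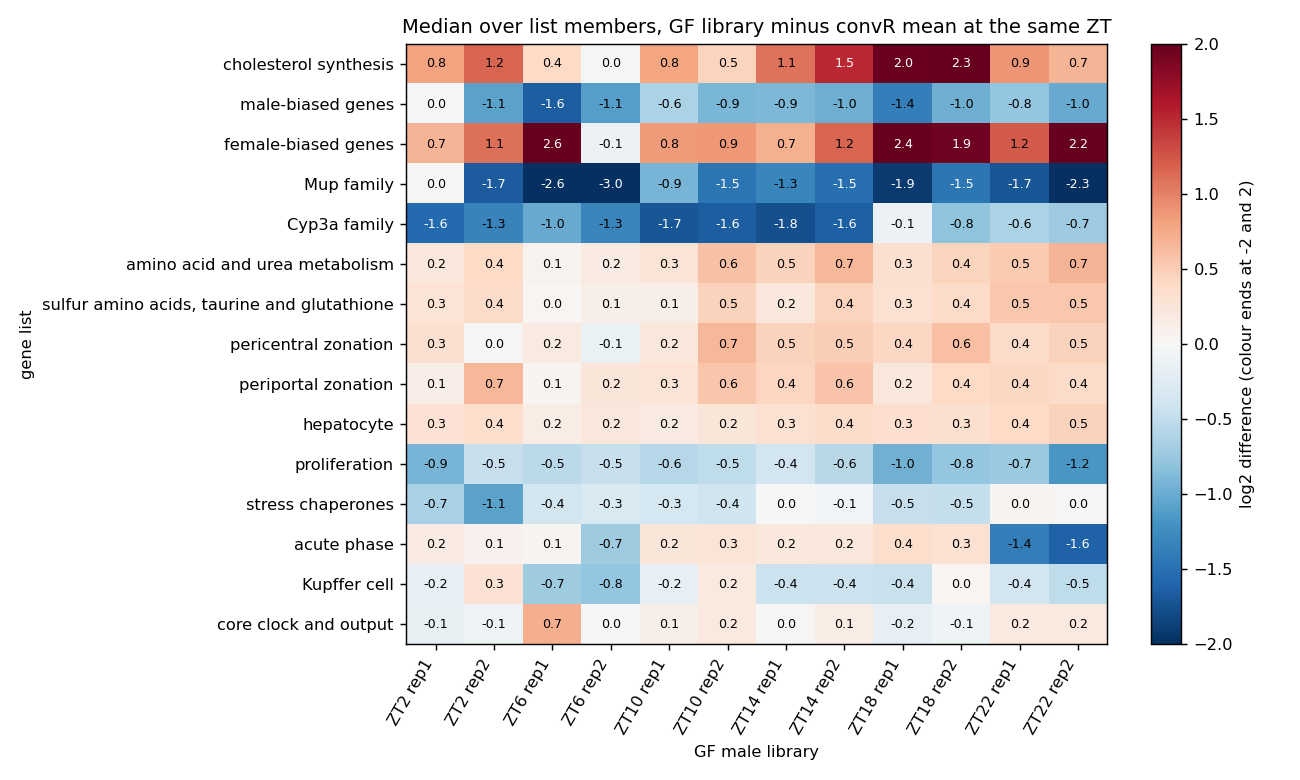
Each cell is the median, over the members of 1 gene list (vertical axis), of the log2 level in 1 GF male library minus the convR mean at the same ZT (horizontal axis, 12 GF libraries). The male-biased and proliferation lists lie below 0 in all 12 GF libraries, and the cholesterol and female-biased lists lie above 0 in 11.

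The largest loss in detoxification was in the Cyp3a family, the cytochromes P450 that oxidise drugs and bile acids and are classical PXR targets. Cyp3a11 (ENSMUSG00000056035, chr5:145854426-145879964, GRCm38) stood at 2739 CPM in the lowest convR library, 4419 at the median and 5573 in the highest, and at 60.2, 151 and 259 CPM in GF. The groups were far from overlapping, and the log2 fold change was -4.78 ± 0.18 (edgeR adjusted p = 1.59e-11). Of the 8 Cyp3a genes tested, 7 fell, against 12.1% of all genes, and their median was -1.35 against -0.00288 for all genes. Cyp3a13 (0.17 ± 0.08) did not pass. Cyp3a16 (-5.12 ± 0.32) and Cyp3a41a (-4.34 ± 0.40) fell from levels under 0.835 CPM in every convR library. Reads can be shared within this family of near-identical genes, so the value of each low member is uncertain. Cyp3a25 fell by 0.51 ± 0.09 on the log2 scale, from a median of 644 to 429 CPM. Together the 9 genes held 0.366% to 0.677% of all counts in convR and 0.0440% to 0.10% in GF. Every GF library lay below every convR library (exact permutation test of the mean difference within ZT, two-sided, p = 4.29e-05, the smallest the permutations allow). Cyp3a11 made up most of the family in convR, with a mean of 4261 of 5168 CPM. The family test is therefore not separate from the fall of Cyp3a11.

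The list of CAR and PXR targets moved both ways. Of 25 tested, Cyp3a11 and Cyp3a25 included, 9 rose (36%) and 8 fell (32%), with a median of 0.10. Of all genes, 11.2% rose and 12.1% fell. Cyp2b10, the standard CAR reporter, fell by 2.52 ± 0.32 on the log2 scale from a low level. The whole Cyp2b family summed to 1.51 to 6.72 CPM in convR. The carboxylesterases Ces2a (-1.23 ± 0.06) and Ces2c (-1.37 ± 0.10) and the glutathione transferase Gsta1 (-1.36 ± 0.19) also fell. Ces2a had non-overlapping ranges of 281 to 519 CPM in convR and 137 to 190 CPM in GF. The efflux pump gene Abcb1a rose by 1.51 ± 0.12, from a median of 4.15 to 13.2 CPM, and the P450 genes Cyp2c54 (1.14 ± 0.14) and Cyp2c50 (0.78 ± 0.10), the receptor gene Nr1i3 encoding CAR (0.61 ± 0.12) and the P450 reductase Por (0.46 ± 0.07) also rose. The PXR gene Nr1i2 measured 0.10 ± 0.06 and did not pass.

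The carboxylesterase family, which hydrolyses esters and amides, followed Ces2a in part. Of 16 tested members 6 fell (37.5%, against 12.1% of all genes), led by Ces2b (-4.09 ± 0.40) and Ces4a (-2.69 ± 0.19). Ces2b fell from a mean of 3.67 to 0.210 CPM. Ces1g, Ces1c and Ces1b rose by 0.41 to 0.64, 18.8% of members against 11.2% of all genes. Among sulfotransferases, 5 of 7 rose (71.4%), Sult1a1 by 1.18 ± 0.11 and Sult1d1 by 0.92 ± 0.08 among them. Sult5a1 fell by 1.73 ± 0.14 on the log2 scale. Of 19 glucuronosyltransferases 5 fell (26.3%) and 7 passed as higher (36.8%). The count higher ran from 0 to 10 over the fits without a single library. It changed by over 1.5 times in 19 of the 24. The members higher belong to the Ugt1a locus, whose first exons share the remaining exons, and their values were nearly the same, so their fold changes of 0.21 to 0.25 are not separable. The AhR targets Cyp1a2 (0.21 ± 0.06), Nqo1 (0.55 ± 0.15) and Ugt1a6a (0.21 ± 0.07) rose. They were 3 of the 8 tested (37.5%), or 2 to 4 over the fits without a single library. Ugt1a6a belongs to the Ugt1a locus, so its rise is not separable from that of the other members.

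Csad (ENSMUSG00000023044, chr15:102176999-102204724, GRCm38), whose product decarboxylates cysteine sulfinate on the route to taurine, fell further than any other gene of sulfur metabolism tested. It ranged from 205 to 465 CPM in convR with a median of 248, and from 12.1 to 80.6 CPM in GF with a median of 19.9. The groups did not overlap, and the highest GF value was that of ZT2 replicate 1. The log2 fold change was -3.37 ± 0.20 (edgeR adjusted p = 6.25e-09). The enzymes around it went the other way. Of the 20 tested genes of sulfur amino acids, taurine and glutathione, 11 were higher (55%, against 11.2% of all genes). There were 2 lower (10%, against 12.1%, or 4 genes without GF ZT6 replicate 1), and the median was 0.30. The methionine adenosyltransferase Mat1a, which makes S-adenosylmethionine, rose by 1.21 ± 0.08, with 1758 to 2904 CPM in convR and 3201 to 6544 CPM in GF. The betaine-homocysteine methyltransferase Bhmt rose by 1.24 ± 0.13, the cystathionine lyase Cth by 0.95 ± 0.08 and the cysteine dioxygenase Cdo1, which supplies the substrate of Csad, by 0.60 ± 0.06. The glutathione synthetase Gss was the other gene that fell (-0.37 ± 0.07), and Gclc and Gclm, the subunits of the rate-limiting enzyme of glutathione synthesis, measured 0.02 ± 0.09 and -0.10 ± 0.08.

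Amino acid catabolism and the urea cycle were also higher in GF males. Of 19 genes tested 13 rose (68.4%, against 11.2% of all genes), and the other 6 measured between -0.07 and 0.30. Got1, the cytosolic aspartate aminotransferase (chr19:43499752-43524605, GRCm38), ranged from 100 to 198 CPM in convR and from 205 to 584 CPM in GF, with medians of 148 and 379. Every GF library lay above every convR library, and the log2 fold change was 1.47 ± 0.09. Cps1, which commits ammonia to the urea cycle, likewise did not overlap, at 4789 to 7964 CPM in convR and 8108 to 10300 CPM in GF (0.63 ± 0.06). Ass1 (0.81 ± 0.09) and Asl (0.49 ± 0.07) of the same cycle rose, as did the ornithine aminotransferase Oat (0.70 ± 0.11), and Otc measured -0.04 ± 0.07. Markers of both ends of the liver lobule rose, among them Cyp2e1 (0.52 ± 0.11) and Etnppl (0.61 ± 0.08). The pericentral genes gave 9 of 13 (69.2%, or 5 genes without ZT18) and the periportal ones 8 of 13 (61.5%). The periportal P450 gene Cyp2f2 fell by 0.43 ± 0.06 on the log2 scale. Hepatocyte marker genes stood beside them with 5 of 10 higher (50%). The summed level of the 10 ran from 90110 to 106800 CPM in convR and from 110300 to 141800 CPM in GF. Their part in the metabolic results was not tested.

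**Figure D2:**
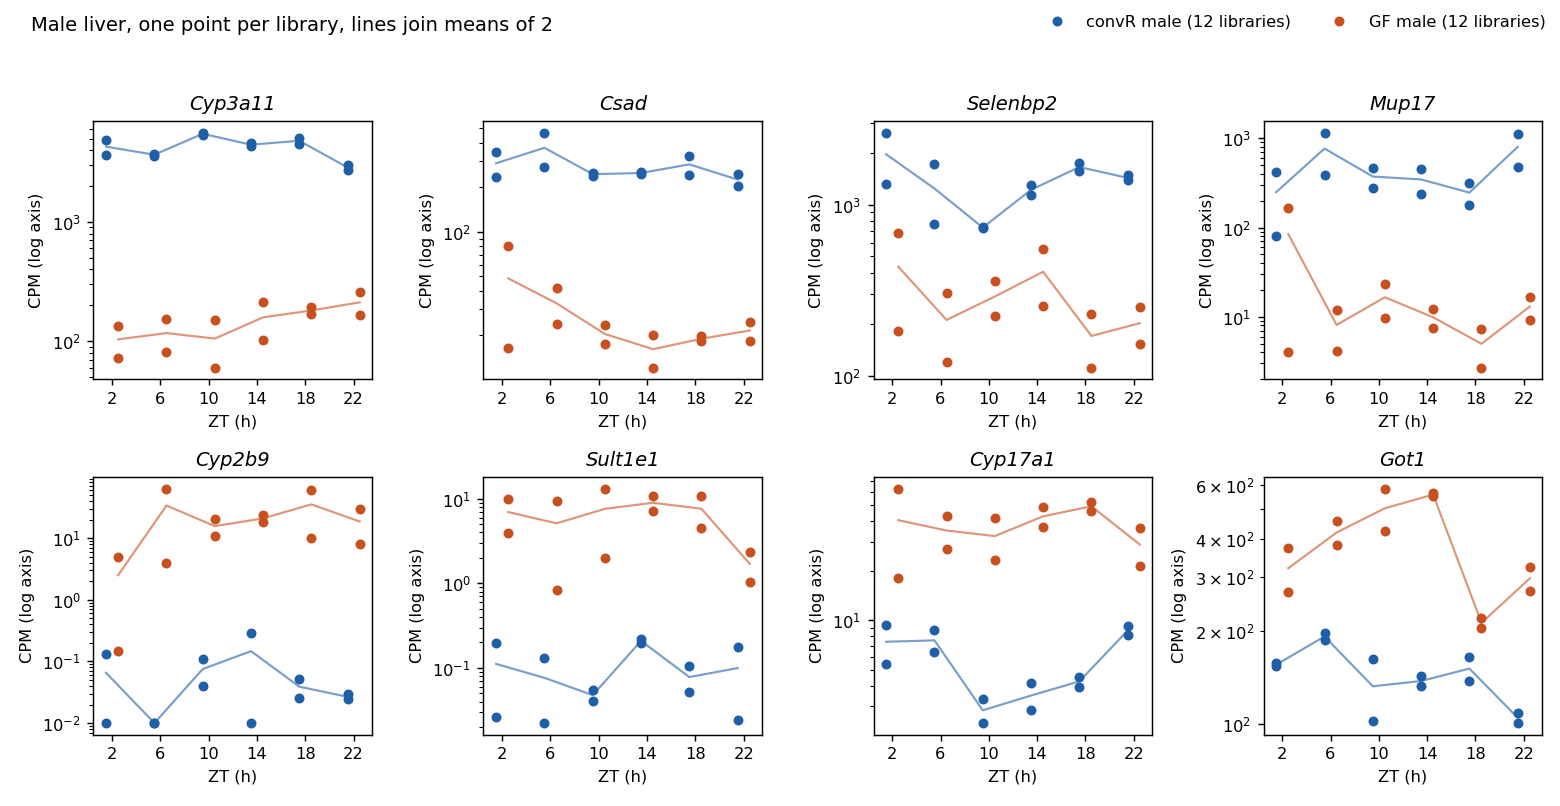
CPM of 8 genes in each of the 24 male libraries on log axes, convR beside GF, with libraries at 0 drawn at the bottom of the axis. Cyp3a11, Csad and Selenbp2 lie lower in every GF library than in any convR library, Sult1e1, Cyp17a1 and Got1 lie higher, and Mup17 and Cyp2b9 overlap through the GF ZT2 replicate 1 library.

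Genes with male-typical expression fell in GF males. Of the 26 tested, 23 fell (88.5%, against 12.1% of all genes), the median was -0.96, and the other 3, Mup21, Slco1a1 and Hsd3b2, measured -0.42 to -0.13. The list is male-typical in these data too, since the mean of every member was higher in convR males than in convR females. Ugt2b38, a glucuronosyltransferase, ranged from 19.6 to 45.4 CPM in convR and from 1.11 to 3.83 CPM in GF (-3.73 ± 0.18). Selenbp2, a selenium-binding protein (chr3:94693556-94704413, GRCm38), ranged from 728 to 2617 CPM in convR and from 112 to 684 CPM in GF (-2.18 ± 0.23). Neither gene overlapped between the groups, and neither did Gstp1, Serpina1e, Ces4a and Cspg5. Serpina1e, an alpha-1-antitrypsin paralogue and among the most abundant messages, fell by 0.93 ± 0.09 on the log2 scale, from 6403 to 10820 CPM down to 2495 to 5415 CPM.

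The major urinary proteins, liver-secreted pheromone carriers that male mice excrete in large amounts, gave 4 of the 15 steepest decreases. Of 19 Mup genes tested 17 fell (89.5%, against 12.1% of all genes) and 1 rose, with a median of -1.44. Mup9 measured -5.32 ± 0.58, Mup17 -4.77 ± 0.48, Mup18 -3.96 ± 0.40 and Mup15 -3.62 ± 0.37. Mup20, which encodes the male scent protein darcin, fell less (-1.18 ± 0.15), from a median of 2885 to 1024 CPM. Mup3 fell by 0.34 ± 0.07 on the log2 scale, Mup2 rose by 0.28 ± 0.07, and Mup21 (-0.42 ± 0.18) did not pass. Counts can be split arbitrarily among such close copies, so the family was also summed over its 21 genes. It held 1.15% to 1.81% of all counts in convR (1.42 ± 0.164%, SD, n = 12) and 0.559% to 1.27% in GF (0.818 ± 0.190%), with 11 of 12 GF libraries below every convR library (exact permutation test within ZT, two-sided, p = 8.57e-05).

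The closeness of the copies shows in their upstream DNA. The stretches below lie on chromosome 4 (RefSeq, GRCm38.p6, minus strand), 35 bases around the TATA element TATATAA, which is in capitals. They were taken from members that fell, from Mup9 and Mup17, among the strongest decreases, to Mup10 (-0.54 ± 0.12), among the weaker ones.
Mup9, chr4:60421971-60422005: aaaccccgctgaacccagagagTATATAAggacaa
Mup17, chr4:61595845-61595879: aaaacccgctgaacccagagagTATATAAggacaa
Mup18, chr4:61674110-61674144: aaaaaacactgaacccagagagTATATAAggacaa
Mup10, chr4:60582173-60582207: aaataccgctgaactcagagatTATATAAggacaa
The Mup17 stretch differed from that of Mup9 at 1 base, those of Mup18 and Mup10 at 4. Mup2, Mup15 and Mup19 carried the same 35 letters as Mup17, although their fold changes were 0.28, -3.62 and -1.44. The element was found in 9 of the 14 Mup genes with a window in the reference.

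The GF ZT2 replicate 1 library differed from the other 11 GF libraries in these genes. Mup17 stood at 164 CPM there and at 2.70 to 23.4 CPM elsewhere in GF, and Mup20 at 2970 CPM against 1583 CPM at most. Of the 26 male-typical genes, 18 lay within the convR range in this library, against a median of 5 and at most 11 in the other GF libraries. It also had the lowest GF level of Cyp2b9, 0.150 CPM. Without it and 3 other libraries that stood apart, 4211 genes were called, 3408 of them shared with the 4091.

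Genes with female-typical expression rose in part. Of 25 tested, 17 rose (68.0%, against 11.2% of all genes) and 3 fell, with a median of 1.55, and 24 of them were higher in convR females than in convR males, Lpl being the exception. Cyp2b9, a P450 abundant in female liver (ENSMUSG00000040660, chr7:26173411-26210661, GRCm38), had a lowest, median and highest level of 0, 0.0274 and 0.294 CPM in convR and of 0.150, 14.4 and 63.5 CPM in GF. All GF libraries except ZT2 replicate 1 lay above the convR range, and the log2 fold change was 8.88 ± 0.83 (edgeR adjusted p = 1.06e-06). The GF level stayed well below the 355 to 550 CPM of convR females. Sult1e1, the oestrogen sulfotransferase (chr5:87575969-87591594, GRCm38), ran from 0.0222 to 0.221 CPM in convR and from 0.840 to 13.2 CPM in GF, without overlap (6.02 ± 0.52).

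The steroid hydroxylase and lyase gene Cyp17a1 (chr19:46667165-46673172, GRCm38) did not overlap either, with 2.38 to 9.41 CPM in convR and 18.1 to 63.3 CPM in GF (2.97 ± 0.20). Cyp2a4, a testosterone hydroxylase close in sequence to Cyp2a5, rose by 3.71 ± 0.47, the acyl-CoA thioesterase Acot3 by 2.61 ± 0.41, the anion transporter Slc22a26 by 2.57 ± 0.40 and the proton pump subunit Atp6v0d2 by 2.43 ± 0.24. The 3 members that fell, Cyp3a16, Cyp3a41a and Cyp3a44 (-1.49 ± 0.32), belong to the Cyp3a family. Cyp2b13, Ntrk2, Lpl, Cyp2c40 and Cyp2c69 measured -0.08 to 0.47 and did not pass.

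**Figure D3:**
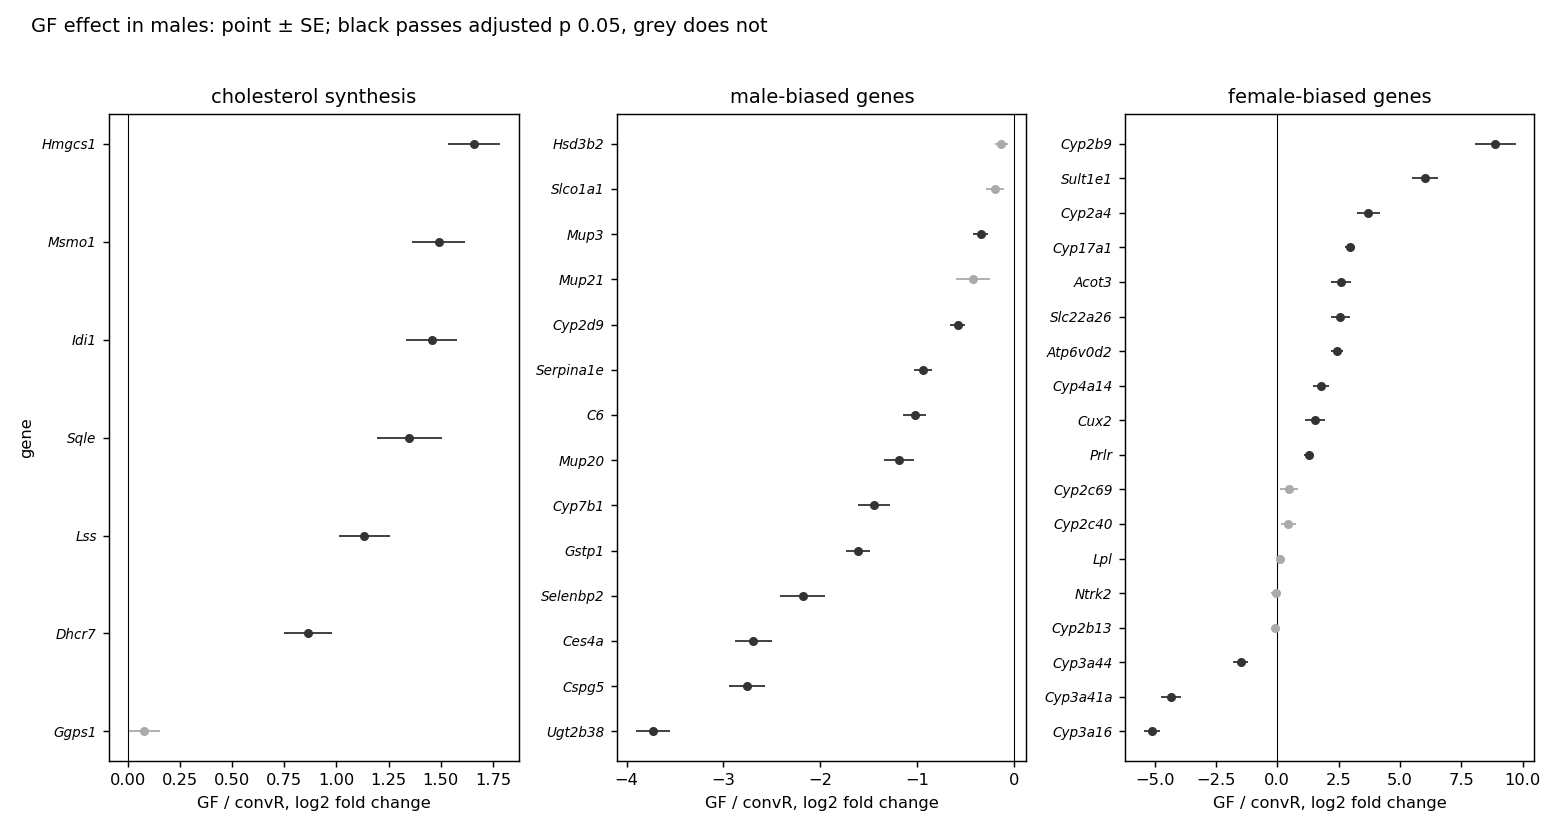
Log2 fold change of GF over convR in males with its approximate SE. The genes drawn are the members of the cholesterol synthesis, male-biased and female-biased lists that the text names. Black points pass an adjusted p of 0.05 and grey points do not, so that 6 of the 7, 11 of the 14 and 13 of the 18 genes drawn are black.

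Of 20 regulators of the growth hormone axis 9 rose (45%, against 11.2% of all genes) and 1 fell (5%, against 12.1%). Cish and Socs2, feedback inhibitors induced by STAT5, rose by 1.57 ± 0.37 and 0.83 ± 0.22, and the prolactin receptor gene Prlr, itself female-typical, by 1.28 ± 0.20. Cux2, an activator of female-typical genes, measured 1.55 ± 0.41, yet 10 of the 12 GF libraries held 0.676 to 1.54 CPM, close to the convR range of 0.416 to 1.29 CPM, while GF ZT6 replicate 1 held 25.0 and GF ZT18 replicate 1 held 3.68 CPM. Bcl6, a repressor that opposes STAT5 at such genes, fell by 1.06 ± 0.25 on the log2 scale. The growth hormone receptor gene Ghr (-0.01 ± 0.06), Igf1 (0.18 ± 0.10), Stat5a (-0.08 ± 0.07) and Hnf4a (-0.06 ± 0.04) did not pass, and Stat5b rose by 0.28 ± 0.06. The STAT5 motif TTCNNNGAA was sought in the 250 bases upstream of the RefSeq start sites. It was found in 4 of 22 female-typical genes with a window (18.2%) and in 0 of 17 male-typical ones. Over all 27025 genes with a window it was found in 8.13%.

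Cholesterol synthesis was higher along its whole length. Of 21 genes tested 20 rose (95.2%, against 11.2% of all genes), with a median of 1.07. Ggps1, which makes a side product of the pathway, measured 0.08 ± 0.08. Hmgcs1 (ENSMUSG00000093930, chr13:119690379-119708260, GRCm38), the cytosolic synthase that starts the mevalonate route, had a lowest, median and highest level of 89.5, 241 and 706 CPM in convR and of 194, 857 and 1252 CPM in GF. The ranges overlapped, and the log2 fold change was 1.66 ± 0.12 (edgeR adjusted p = 4.94e-08). Downstream enzymes rose by 1.49 ± 0.13 (Msmo1, listed as Sc4mol), 1.46 ± 0.12 (Idi1), 1.35 ± 0.16 (Sqle) and 1.13 ± 0.12 (Lss), and Dhcr7, an enzyme of the last steps, rose by 0.87 ± 0.12. The list's median was above 0 in 11 of 12 GF libraries. The count called higher was 19 or 20 without any single library, without any single time and without the 4 libraries that stood apart.

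Upstream windows of 4 of these genes are shown because the pathway moved together. They hold the 150 bases before the RefSeq start site (GRCm38.p6, written along the gene's strand), with capitals at the CCAAT box, on either strand, and at the sterol regulatory element letters TCACNCCAC.
Hmgcs1, chr13:119690201-119690350, plus strand: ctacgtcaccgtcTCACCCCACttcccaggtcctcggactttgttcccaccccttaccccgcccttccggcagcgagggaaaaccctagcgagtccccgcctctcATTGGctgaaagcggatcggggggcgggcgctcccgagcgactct
Idi1, chr13:8885456-8885605, plus strand: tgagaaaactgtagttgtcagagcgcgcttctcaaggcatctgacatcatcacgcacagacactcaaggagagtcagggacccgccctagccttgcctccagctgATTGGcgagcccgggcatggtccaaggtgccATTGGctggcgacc
Msmo1, chr8:64733579-64733728, minus strand: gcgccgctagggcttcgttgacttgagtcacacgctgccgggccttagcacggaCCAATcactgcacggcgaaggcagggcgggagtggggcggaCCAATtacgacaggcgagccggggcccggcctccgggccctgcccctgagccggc
Lss, chr10:76531455-76531604, plus strand: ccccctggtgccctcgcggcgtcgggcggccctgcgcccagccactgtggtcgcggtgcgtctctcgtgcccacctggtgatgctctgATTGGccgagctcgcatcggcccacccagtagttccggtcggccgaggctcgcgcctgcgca
CCAAT, on either strand, was found within 250 upstream bases in 15 of the 16 cholesterol genes with a window (93.8%). Over all 27025 genes with a window it was found in 37.5%. TCACNCCAC was found in 1 of the 16, Hmgcs1, and in 1.22% of all genes with a window.

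Genes that control or carry sterols rose less. Of 20 tested 11 rose (55%, against 11.2% of all genes), with a median of 0.19. The triglyceride transfer protein gene Mttp (-0.13 ± 0.04) alone passed as lower (5%, against 12.1%). The call on Mttp was lost in 14 of the 24 fits without a single library. Srebf2, the transcription factor gene of sterol synthesis, rose by 0.59 ± 0.06, and its known targets Insig1 and Stard4 by 0.69 ± 0.11 and 0.76 ± 0.06. The canalicular sterol exporters Abcg5 and Abcg8 rose by 0.70 ± 0.08 and 0.60 ± 0.07. Srebf1 (0.11 ± 0.16), which drives fatty acid synthesis, did not pass, nor did the LXR gene Nr1h3 (0.01 ± 0.06) or its target Abca1 (-0.06 ± 0.05).

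Bile acid synthesis showed no common direction, with 4 of 16 genes higher (25%) and 3 lower (18.8%, or 5 genes without GF ZT2 replicate 1). The median was -0.01. Of all genes, 11.2% were higher and 12.1% lower. Cyp7a1, which sets the rate of the classical route, ran from 111 to 509 CPM in convR and from 13.5 to 852 CPM in GF, and its mean difference of -0.24 ± 0.17 did not pass. Cyp8b1, which directs synthesis to cholic acid, measured -0.57 ± 0.21 (edgeR adjusted p = 0.0557). Cyp7b1, the oxysterol hydroxylase of the alternative route and also a male-typical gene, fell by 1.44 ± 0.17 on the log2 scale, from a median of 467 to 172 CPM, and Cyp39a1, which hydroxylates another oxysterol, rose by 1.22 ± 0.16. Of 16 transport and signalling genes 7 rose (43.8%) and 1 fell (6.25%). The count that fell was 4 without GF ZT6 replicate 1 and 2 without GF ZT10 replicate 2 or GF ZT22 replicate 1. The uptake transporters Slco1a4 (1.18 ± 0.17) and Slc10a1 (0.40 ± 0.11) and the FGF co-receptor Klb (0.68 ± 0.07) rose, the basolateral exporter Abcc3 fell by 0.27 ± 0.07 on the log2 scale, and the bile salt pump Abcb11 measured 0.02 ± 0.07. The bile acid receptor gene Nr1h4 (-0.13 ± 0.06) and its target Nr0b2 (0.27 ± 0.20) did not pass.

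Fat and glucose genes were called higher more often than the 11.2% of all genes. Of 29 PPARα and fatty acid oxidation genes 11 rose (37.9%) and 2 fell (6.9%, or 4 genes without GF ZT6 replicate 1), with a median of 0.08. Among those that rose were the ω-hydroxylases Cyp4a14 (1.80 ± 0.32), Cyp4a31 (1.65 ± 0.26) and Cyp4a10 (1.21 ± 0.31), Acot3 and Cpt1a (0.46 ± 0.08), while the mitochondrial oxidation genes Hadha (-0.01 ± 0.05) and Acadvl (-0.03 ± 0.06) did not pass. Of 18 lipogenesis genes 6 rose (33.3%), or 11 without GF ZT2 replicate 1. Acss2 (1.13 ± 0.16) and the desaturases Fads2 (0.83 ± 0.07) and Fads1 (0.69 ± 0.09) were among those that rose. Pparg fell by 1.18 ± 0.12 on the log2 scale without overlap of the groups. Of 16 glucose genes 7 rose (43.8%), or 4 without ZT14. They included the insulin-responsive binding protein Igfbp1 (2.52 ± 0.39), which ran from 5.97 to 69.2 CPM in convR and from 15.4 to 276 CPM in GF, and the glycogen synthase Gys2 (0.76 ± 0.08).

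Among genes outside these groups with the largest rises were Hamp2, a copy of the iron hormone hepcidin, with medians of 3.39 CPM in convR and 26.7 CPM in GF (3.19 ± 0.28), the thyroxine-binding globulin Serpina7 (2.17 ± 0.17), the cone phosphodiesterase Pde6c (3.05 ± 0.25), the glutathione peroxidase Gpx6 (2.87 ± 0.17), the nicotinic receptor subunit Chrna4 (2.77 ± 0.42), Fam19a2 (3.41 ± 0.44) and Lrtm1 (2.63 ± 0.20). Serpina7, Gpx6 and Lrtm1 did not overlap between the groups. Pde6c, Gpx6 and Fam19a2 were low in both groups. Their means were 0.257, 0.396 and 0.281 CPM in convR and 2.07, 2.90 and 2.83 CPM in GF. Hepcidin itself, Hamp, measured -0.47 ± 0.21 and did not pass. Lars2, the mitochondrial leucyl-tRNA synthetase, measured 3.23 ± 0.71. Across the 24 libraries its log2 CPM moved with that of Mir5105 (Pearson r = 0.87 over libraries of both groups, given as a description). The log2 CPM of the kinase gene Cdk8 did so too (r = 0.982). Whether the reads at these genes come from their own transcripts was not tested. Mir5105 itself measured 1.0 ± 0.25, or 0.66 without GF ZT6 replicate 2. Among the steepest decreases were also the complement gene C4a (-2.77 ± 0.20), Hist1h4m, a replication-dependent histone gene (-3.90 ± 0.26), and Cspg5 (-2.75 ± 0.19), all 3 without overlap.

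Proliferation genes fell in 14 of 20 cases (70.0%, against 12.1% of all genes), with a median of -0.78. The other 6 measured -0.24 to 0.05. They were low in both groups. Mki67, the marker of cycling cells, ran from 2.77 to 10.9 CPM in convR and from 1.30 to 2.58 CPM in GF (-1.23 ± 0.14), and the topoisomerase Top2a (-1.36 ± 0.17) and the kinase Cdk1 (-1.39 ± 0.17) did not overlap either. The mitotic genes Ccnb1 (-1.95 ± 0.24), Cdc20 (-1.59 ± 0.23) and Bub1 (-1.55 ± 0.39) fell most, and the replication factor Pcna (-0.05 ± 0.07) did not pass. Stress chaperones fell in 9 of 17 cases (52.9%). They were led by the small heat shock protein Hspb1 (-1.48 ± 0.13) and the endoplasmic reticulum proteins Creld2 (-1.30 ± 0.19) and Sdf2l1 (-1.13 ± 0.16). In bulk RNA, fewer cells of a type and less RNA per cell cannot be told apart.

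Immune genes are set here against the 11.2% of all genes called higher and the 12.1% called lower. Of 24 genes of microbial sensing and inflammation 5 fell (20.8%) and 1 rose (4.17%, or 2 genes without GF ZT6 replicate 2). The flagellin receptor gene Tlr5 fell by 0.84 ± 0.15 on the log2 scale and the lipopeptide receptor gene Tlr2 by 0.48 ± 0.11, while Tlr4 (0.03 ± 0.10), its co-receptor Cd14 (-0.01 ± 0.13) and Myd88 (-0.08 ± 0.06) did not pass. Of 32 interferon and antigen presentation genes 5 fell (15.6%), or 8 without GF ZT6 replicate 2, and 2 rose (6.25%). Oas2 (-0.95 ± 0.12) and Irf7 (-0.61 ± 0.08, without overlap) were among those that fell. Markers of Kupffer cells, the resident macrophages, were called lower for 7 of 13 genes, and their summed level was 408 to 766 CPM in convR and 307 to 508 CPM in GF. That count was 4 without ZT6, 2 without ZT14 or without ZT22, and 0 without both ZT6 and ZT22. B and plasma cell markers rose for 3 of 8, with summed levels of 4.74 to 22.3 CPM in convR and 8.06 to 72.3 CPM in GF. The part of these cells in the immune results was not tested.

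The time of day changed the GF effect for 295 genes (1.68%), by an edgeR test with 5 degrees of freedom that the difference is equal at the 6 times. The count was 83 without ZT18, 110 without ZT22, 141 without ZT10, 93 without convR ZT6 replicate 2 and 3241 without GF ZT6 replicate 1. Of the libraries that stood apart, it was 149 without convR ZT10 replicate 2, 144 without convR ZT18 replicate 1, 521 without GF ZT6 replicate 2 and 344 without GF ZT2 replicate 1. It moved by over 1.5 times in 16 of the 24 fits without a single library. Core clock and output genes gave 10 of 19, or 4 without ZT6, and from 3 (without convR ZT6 replicate 2) to 18 (without GF ZT6 replicate 1) over the fits without a single library. Arntl, the clock activator also called Bmal1, stood at 16.6 and 22.6 CPM in the convR libraries at ZT6 and at 2.49 and 3.09 CPM in GF, whereas at ZT22 it stood at 29.2 and 24.9 CPM against 44.2 and 38.7 CPM in GF (edgeR adjusted p of the time dependence 9.69e-05, or 0.124 without ZT6). Dbp, an output gene that Arntl and its partner activate, stood at 38.7 and 30.9 CPM in convR at ZT6 and at 149 and 179 CPM in GF. Its mean over the day differed by 0.09 ± 0.17, which did not pass.

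Hmgcs1 rose at all 6 times but unevenly. At ZT18 the convR libraries held 111 and 89.5 CPM and the GF libraries 1097 and 1143 CPM, while at ZT6 they held 421 and 706 against 918 and 520 CPM, which overlap. Of the 21 cholesterol genes 7 depended on time, against 1.68% of all genes. The count was 18 without GF ZT6 replicate 1. It was as low as 1 without convR ZT6 replicate 2, convR ZT18 replicate 2, GF ZT18 replicate 1 or GF ZT18 replicate 2. Cyp7a1 changed sides, with 222 and 509 CPM in convR against 52.5 and 13.5 CPM in GF at ZT2 and with 370 and 281 CPM against 565 and 852 CPM at ZT14 (edgeR adjusted p of the time dependence 0.00586). The metallothionein gene Mt1, induced by metals and stress, averaged 193, 164 and 165 CPM in GF at ZT6, ZT10 and ZT14, where convR averaged 22.6, 17.7 and 29.1 CPM, yet at ZT22 convR averaged 154 CPM and GF 38.1 CPM.

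Acute-phase genes, which hepatocytes secrete under inflammatory cytokines, gave 14 time-dependent calls of 23, against 1.68% of all genes. The count was 22 without GF ZT6 replicate 1, 7 without GF ZT22 replicate 2, 8 without convR ZT22 replicate 1 or convR ZT22 replicate 2, and 9 without convR ZT6 replicate 2. Over all times 8 fell (34.8%, against 12.1% of all genes). Another 3 rose (13%, near the 11.2% of all genes, or 5 genes without GF ZT6 replicate 2). The median was -0.03. Saa1 stood at 3821 and 4118 CPM in the convR libraries at ZT22 and at 991 and 1705 CPM at ZT6, while the remaining 8 convR libraries held 16.3 to 265 CPM and the GF libraries 14.2 to 109 CPM. Haptoglobin (Hp) reached 9040 and 9941 CPM and hemopexin (Hpx) 11710 and 11560 CPM in convR at ZT22, against 3331 and 4089 CPM at most in GF. Without ZT6 and ZT22, 2 acute-phase genes were called lower and 12 higher, and Hpx went from -0.35 ± 0.05 to 0.022 (edgeR adjusted p = 0.811). Saa1 then measured -1.30 (adjusted p = 0.0517), while Saa2 (-1.90, adjusted p = 0.0142) and Saa3 (-1.29, adjusted p = 0.000245) still passed.

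**Figure D4:**
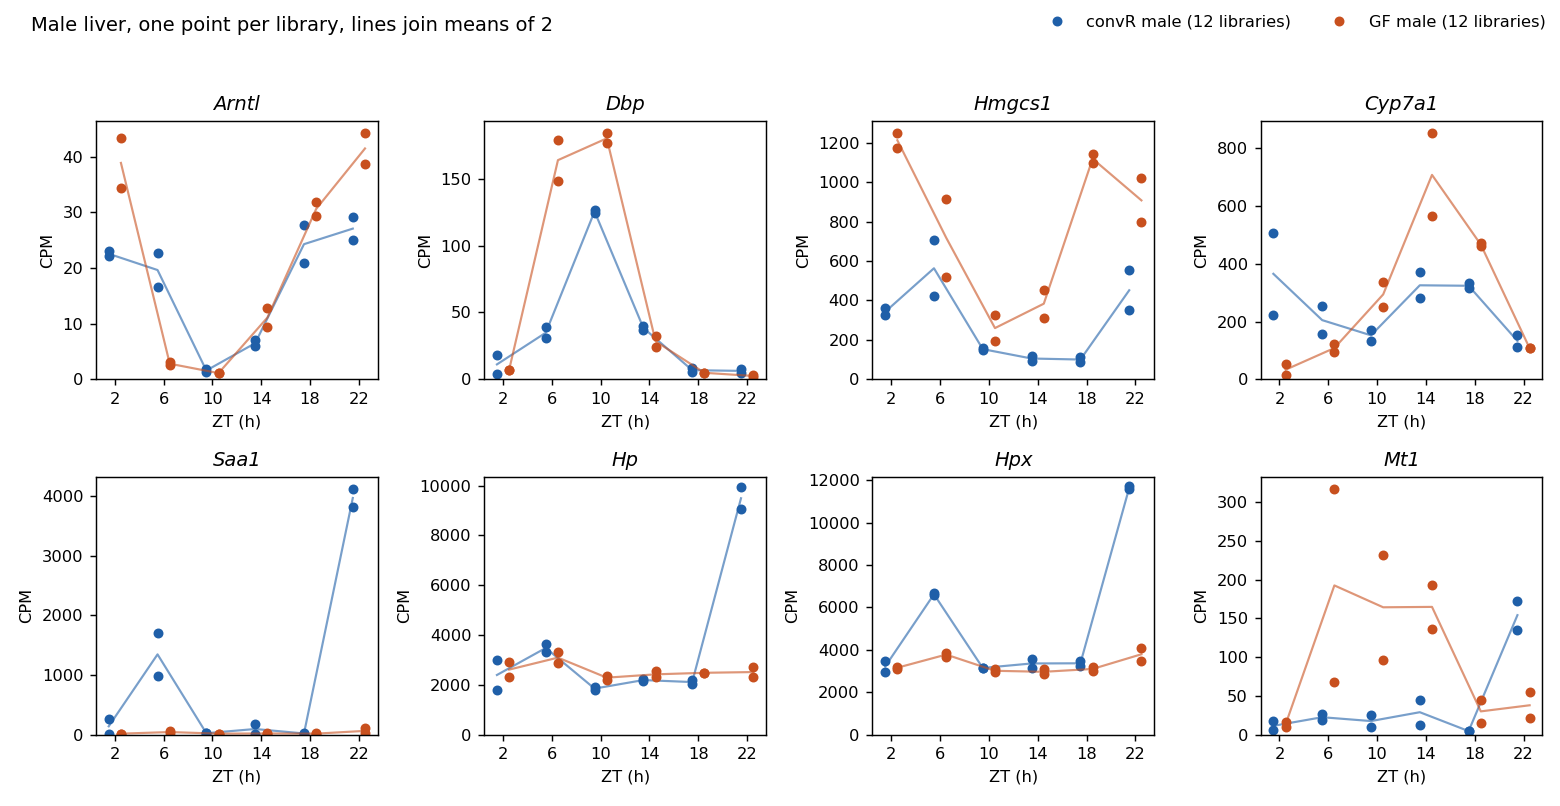
CPM of 8 genes against ZT in hours on linear axes, with 1 point per male library and lines through the means of convR and GF. Arntl and Dbp part at ZT6, Hmgcs1 is higher in GF by most at ZT18, Cyp7a1 crosses between ZT2 and ZT14, and Saa1, Hp and Hpx stand high in the convR libraries of ZT22.

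The effect in males was set against that in females by testing the difference of the 2 effects in a fit of all 48 libraries. It differed for 1443 of 17867 genes (8.08%). The 8 genes with the lowest p were Cyp3a11, Gstp1, Cyp2b9, Tspan33, Dpy19l3, Cyp2d9, Cyp2a4 and C6. Cyp3a11 fell by 4.78 in males and by 1.74 in females on the log2 scale, a difference of -3.04 ± 0.19 (edgeR adjusted p = 1.13e-11). Gstp1, which conjugates glutathione, ranged from 785 to 1400 CPM in convR males and from 186 to 466 CPM in GF males (-1.61 ± 0.12), and measured 0.27 in females. In females, 3 GF libraries carried 173 to 186 CPM of the mitochondrial transhydrogenase gene Nnt, while the remaining 45 libraries held 44.4 to 75.5 CPM, and without those 3 libraries 1469 genes differed, 1111 shared with the 1443.

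Cholesterol synthesis separated the sexes most among the metabolic lists, with 19 of 21 genes differing, against 8.08% of all genes. The median was 1.07 in males and -0.26 in females. Hmgcs1 measured 1.66 in males and -0.64 in females (edgeR adjusted p of the difference 1.89e-05). Of the male-typical genes 16 of 26 differed (median in females 0.17), of the female-typical ones 17 of 25 (median in females -0.03) and of the acute-phase genes 12 of 23 (median in females 0.38). For other genes the difference did not pass. Csad measured -3.37 in males and -3.23 in females, Sult1e1 6.02 in both, Serpina7 2.17 and 2.61, and Top2a -1.36 and -1.34. Amino acid and urea genes had a median of 0.42 in males and 0.41 in females, and proliferation genes -0.78 and -0.87. Without the libraries numbered 1 the difference between the sexes was called for 17 genes, and without those numbered 2 for 114. Both fits used a GF effect common to all times within each sex.

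**Figure D5:**
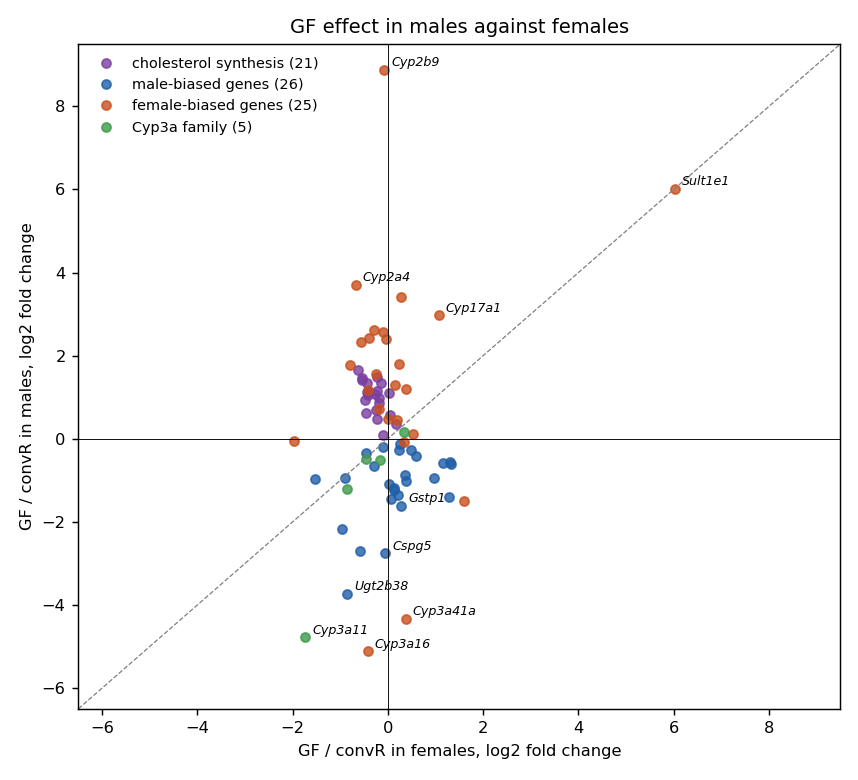
Log2 fold change of GF over convR in males (vertical axis) against females (horizontal axis) for members of the cholesterol, male-biased, female-biased and Cyp3a lists, with the dashed line at equal effects. Cyp2b9 and Cyp2a4 lie far above the line, Cyp3a11 and Ugt2b38 below it, and Sult1e1 on it.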

How the data were processed

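Total RNA of liver was depleted of ribosomal RNA and made into stranded paired-end libraries, per the labels' protocols. Reads were aligned with STAR 2.4.0i to mm10, per the submitters' processing notes. The authors deposited whole-number exon read counts per gene, not normalized. The counting tool, its annotation, its use of strand and its treatment of reads with several matches are not given in the sources used, so overlapping genes, antisense genes and near-identical copies may share counts.

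Genes were filtered (filterByExpr, minimum count 10, minimum total 15), scaled by TMM and tested in edgeR 4.0.16 (R 4.3.3) with the quasi-likelihood F test, 1 coefficient for each status and time and no replicate block. The contrast was GF minus convR averaged over 6 times, with Benjamini-Hochberg adjustment over all 17550 genes and a threshold of 0.05. The time dependence was tested in the same fit, and the difference between sexes in a fit of 48 libraries. CPM used the full library totals, before TMM scaling. Replicate pairs all differed beyond counting noise, so no library was counted as a repeat. The shares of the Mup and Cyp3a families were compared by exact permutation within time.

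Genes named were the 15 highest and 15 lowest log2 fold changes among called genes whose mean log2 CPM reached 0 and whose direction held at 5 times or more, the 6 largest increases and 6 largest decreases in mean CPM, the 8 lowest p-values for time dependence and for the sex difference, and members of 23 gene lists, 13 marker lists and 14 gene families. Some genes these rules name are not reported here. Nnt was chosen after its values were seen, and Cdk8 was added by choice. The comparison, the members and the lists were chosen with earlier results of these data known. Coordinates came from GENCODE M21, which matched 36308 of 38087 identifiers, and upstream sequences from RefSeq (GRCm38.p6). The test was checked on simulated counts. Alternatives were other scalings, no filter, an additive model (a GF effect common to all times), DESeq2 1.42.0, a replicate block, and leaving out libraries, times or a replicate number. Fits without a replicate number also used the additive model.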

Additional observations from a re-analysis of the deposited data

Results flagged for a closer look

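The GF effect differed between males and females for 1443 genes, by an edgeR test of the difference over 48 libraries. In the 8 genes with the lowest p, the male minus female difference on the log2 scale was -3.04 for Cyp3a11, -1.88 for Gstp1, 8.94 for Cyp2b9, -1.19 for Tspan33, -1.70 for Dpy19l3, -1.73 for Cyp2d9, 4.39 for Cyp2a4 and -1.40 for C6. All 8 kept their direction and passed without the 3 GF female libraries high in Nnt and without the 4 male libraries that stood apart. Without the libraries numbered 1, Tspan33 (-1.12, adjusted p = 0.366) and C6 (-1.26, adjusted p = 0.0928) lost their call, and without those numbered 2, Tspan33 (-1.26, adjusted p = 0.102) and Cyp2d9 (-1.64, adjusted p = 0.0563) did.

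The GF effect in males differed among the 6 times for 295 genes. The 8 genes with the lowest p were Arntl (edgeR adjusted p = 9.69e-05), Hpx (0.00118), Cml5 (0.00129), Hp (0.00165), the ubiquitin protease Usp2 (0.00259), Klhl21 (0.00301), the mitotic kinase gene Wee1 (0.00341) and Lgalsl (0.00341). Without ZT6 the adjusted p was 0.124 for Arntl, 0.0510 for Cml5, 0.0556 for Wee1 and 0.289 for Lgalsl. Without ZT18 it was 0.0958 for Klhl21, and without ZT22 it was 0.0779 for Hpx and 0.65 for Hp. Usp2 passed without each single time.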

How the results depend on the processing

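The count of GF effects was 4091 and kept within 1.5 times under DESeq2 (4212, 3987 shared), RLE scaling (4085), no filter (4225), an additive model (3492) and without any single library (3430 to 5168) or time (2926 to 4589). It was 523 without the libraries numbered 1 and 1109 without those numbered 2. These fits of 12 libraries used the additive model and a filter grouped by status. The time dependence (295 genes) moved more. It was 2354 with no filter, 141 without ZT10, 83 without ZT18, 110 without ZT22, 184 without ZT6 and ZT22, 183 without the 4 libraries that stood apart, and 93 to 3241 without single libraries, of which GF ZT6 replicate 1 gave 3241 and GF ZT6 replicate 2 gave 521. The cause was not tested. The sex difference (1443) was 17 without the libraries numbered 1 and 114 without those numbered 2, 1469 without the 3 GF female libraries high in Nnt and 1636 without the 4 male libraries. The differences in family share kept their direction and threshold wherever a test was made.

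At each time, the difference between libraries numbered 1 and 2 in convR was correlated over genes with the same difference in GF. That correlation was over 0.1 only at ZT22 (0.303) and ran from -0.0825 to 0.0999 at the other times. The numbers were therefore not taken as pairs, although 120 genes differed between them. With the replicate number as a block, 4223 genes were called for the GF effect, 313 for time dependence and 1449 for the sex difference.

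For the 41 genes taken by the fold change or CPM rule, 1633 of 1640 fold changes over alternatives with both replicate numbers kept direction and call, 6 lost the call and 1 reversed, Hpx without ZT6 and ZT22 (0.022, adjusted p = 0.811). With 2 libraries for each status and time, effects at a single time rest on 4 libraries.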

Other observations

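Other detoxification families also changed in GF males. All 4 Cyp2a genes tested rose, from Cyp2a12 (0.20 ± 0.05) and Cyp2a22 (0.57 ± 0.11) to Cyp2a5, the coumarin hydroxylase (0.81 ± 0.11), and Cyp2a4. Of 14 Cyp2c genes 7 rose (50%, against 11.2% of all genes) and 1, Cyp2c55 (-1.22 ± 0.13), fell (7.14%, against 12.1%). Of 20 glutathione transferases 9 rose (45%), among them Gstt3 (1.28 ± 0.13) and Gstm7 (0.85 ± 0.06), and 5 fell (25%). Among the serpins, the corticosteroid-binding globulin gene Serpina6 rose by 0.94 ± 0.13, from a median of 107 to 240 CPM. The erythroid aminolevulinate synthase gene Alas2 was read in liver at 95.9 to 146 CPM in convR and 62.3 to 105 CPM in GF. It fell by 0.48 ± 0.06 on the log2 scale, while the globin genes measured 0.56 to 0.76 and did not pass.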
